A study of Mus musculus with 8 samples.

Results

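The 9 genes described here encode subunits of voltage-gated calcium channels. They are the L-type pores Cacna1c and Cacna1d, the T-type pores Cacna1g and Cacna1h, the cytoplasmic β subunits Cacnb1, Cacnb2 and Cacnb3, and the extracellular α2δ subunits Cacna2d1 and Cacna2d2. They were taken by symbol as named L-type and T-type subunits, in a choice made with earlier results of these data known. All 9 were found among the 49315 genes of the count tables. RNA was sequenced from cardiomyocytes of C57/Bl6 mouse embryos at E12.5, taken from male and female embryos together and kept in culture. There were 4 libraries from control cultures and 4 from cultures given 10 µM simvastatin, a statin that inhibits HMG-CoA reductase, the rate-limiting enzyme of cholesterol synthesis. No transgene or deletion is named for either group. The sources used here do not give the time in the drug, and the extraction protocol speaks of dissected hearts while the design text speaks of cultured cells. The labels do not say that the 4 libraries of a group came from separate cultures, so each p-value reflects only how far these libraries vary, which may be technical.

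A voltage-gated calcium channel opens when the membrane depolarises and lets calcium into the cell. In heart muscle the L-type channel carries the calcium current of the action potential plateau and triggers calcium release from the sarcoplasmic reticulum, with Cacna1c as the main pore of the working myocardium and Cacna1d prominent in pacemaker and atrial cells. T-type channels open at more negative voltages, are abundant in the embryonic heart and later persist mainly in pacemaker and conduction tissue. The β and α2δ subunits bind the L-type pore, bring it to the cell surface and shape its gating, whereas T-type pores lack the β-binding site.

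The pore of each channel is lined by a loop from each of its homologous domains, and an acidic residue in each loop selects for calcium. The coding sequence around that residue in domain III is shown because it separates the L-type pores from the T-type pores that rose in these data. The capitals mark the codon of the acidic residue, and each stretch lies within 1 exon (GRCm38, minus strand in all 4 genes, from the longest coding transcript of GENCODE M21).
Cacna1c, chr6:118656115-118656144: ttcaccgtctccaccttcGAAgggtggcca
Cacna1d, chr14:30100699-30100728: ttcacagtctcaacttttGAGggctggccc
Cacna1g, chr11:94426462-94426491: tttgtgctggcctccaagGATggctgggtt
Cacna1h, chr17:25383499-25383528: ttcgtgctgtcatccaagGATggctgggta
The L-type pair carried a glutamate codon here, GAA or GAG, and the T-type pair an aspartate codon, GAT. Of these 30 bases, 23 were identical between Cacna1c and Cacna1d and 26 between Cacna1g and Cacna1h, whereas 13 to 16 were identical between an L-type and a T-type gene. In domain IV the codons were GAG and GAA in the L-type genes and GAC in both T-type genes, and in domains I and II all 4 genes had a glutamate codon. The stretches were located by residue patterns. Those for domains I and II require glutamate, so that result was fixed by the search. Those for domains III and IV allow either a glutamate or an aspartate motif.

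The stretch that binds the β subunit, in the linker of domains I and II, was found once in each L-type gene and not in the coding sequence of the transcripts used for Cacna1g and Cacna1h. It is shown because, among the pores described here, it ties the β subunits to the L-type pair only. The search used a fixed residue pattern that holds the core residues of the site, and other pores of the family were not searched for it. The capitals mark the tyrosine, tryptophan and isoleucine codons at the core of the site (GRCm38, minus strand).
Cacna1c, chr6:118734906-118734959: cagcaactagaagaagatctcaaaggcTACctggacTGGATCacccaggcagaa
Cacna1d, chr14:30142600-30142653: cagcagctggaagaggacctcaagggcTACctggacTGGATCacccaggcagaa
Of the 54 bases 49 were identical, with all 3 core codons shared. The α2δ subunits carry a metal-binding site through which they act on the pore and reach the cell surface, and the stretch is shown because 1 gene of the pair that shares it rose here and the other did not pass the test. The capitals mark its metal-binding aspartate and serine codons (GRCm38, plus strand; an intron splits each stretch, so the coordinates span more than the printed bases).
Cacna2d1, chr5:16266721-16267397: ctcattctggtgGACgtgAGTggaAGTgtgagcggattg
Cacna2d2, chr9:107513088-107513254: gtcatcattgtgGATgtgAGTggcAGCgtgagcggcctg
Of these 39 bases 30 were identical.

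Library totals ran from 30474586 to 35215640 counts. CPM below means a gene's count scaled to the size of its library with TMM factors, values are means ± SD of 4 libraries, and log2 fold changes of simvastatin over control come with their standard error (SE). They were tested in all genes together with edgeR's quasi-likelihood test, with Benjamini-Hochberg adjustment over 16126 genes and a threshold of 0.05. The SE was derived from that test, as the size of the fold change over the square root of the test's F statistic. All 9 subunits passed the filter on low counts. The headers of the count columns put replicates 1 and 3 of each group in a set 1 and replicates 2 and 4 in a set 2. What a set is was not stated, so values within each set stand beside the pooled ones.

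Of the 9 subunits 3 rose with simvastatin and none fell, where 17.4% of all tested genes changed, 7.79% of them upwards and 9.61% downwards. Both T-type pores of the 9, Cacna1g and Cacna1h, and the α2δ subunit Cacna2d2 rose, whereas neither L-type pore of the 9 passed the test. Cacna1s, an L-type pore outside the 9, was called lower from a low level (log2 fold change -2.94, edgeR adjusted p = 0.0061). The control and simvastatin libraries did not overlap in 4 subunits, the 3 that rose and Cacnb1, against 23.1% of all genes tested. The median log2 fold change was 0.49 over the 9 subunits and 0.01 over all genes, and 7 of the 9 values were positive. The 9 genes were chosen with earlier results of these data known, so these comparisons with all genes are a description only. DESeq2 called 4 of the 9 higher, with 8.4% of all genes it tested called higher. With limma-voom 3 of the 9 were called higher, as were 1264 of all 16126 genes tested.

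**Figure D1:**
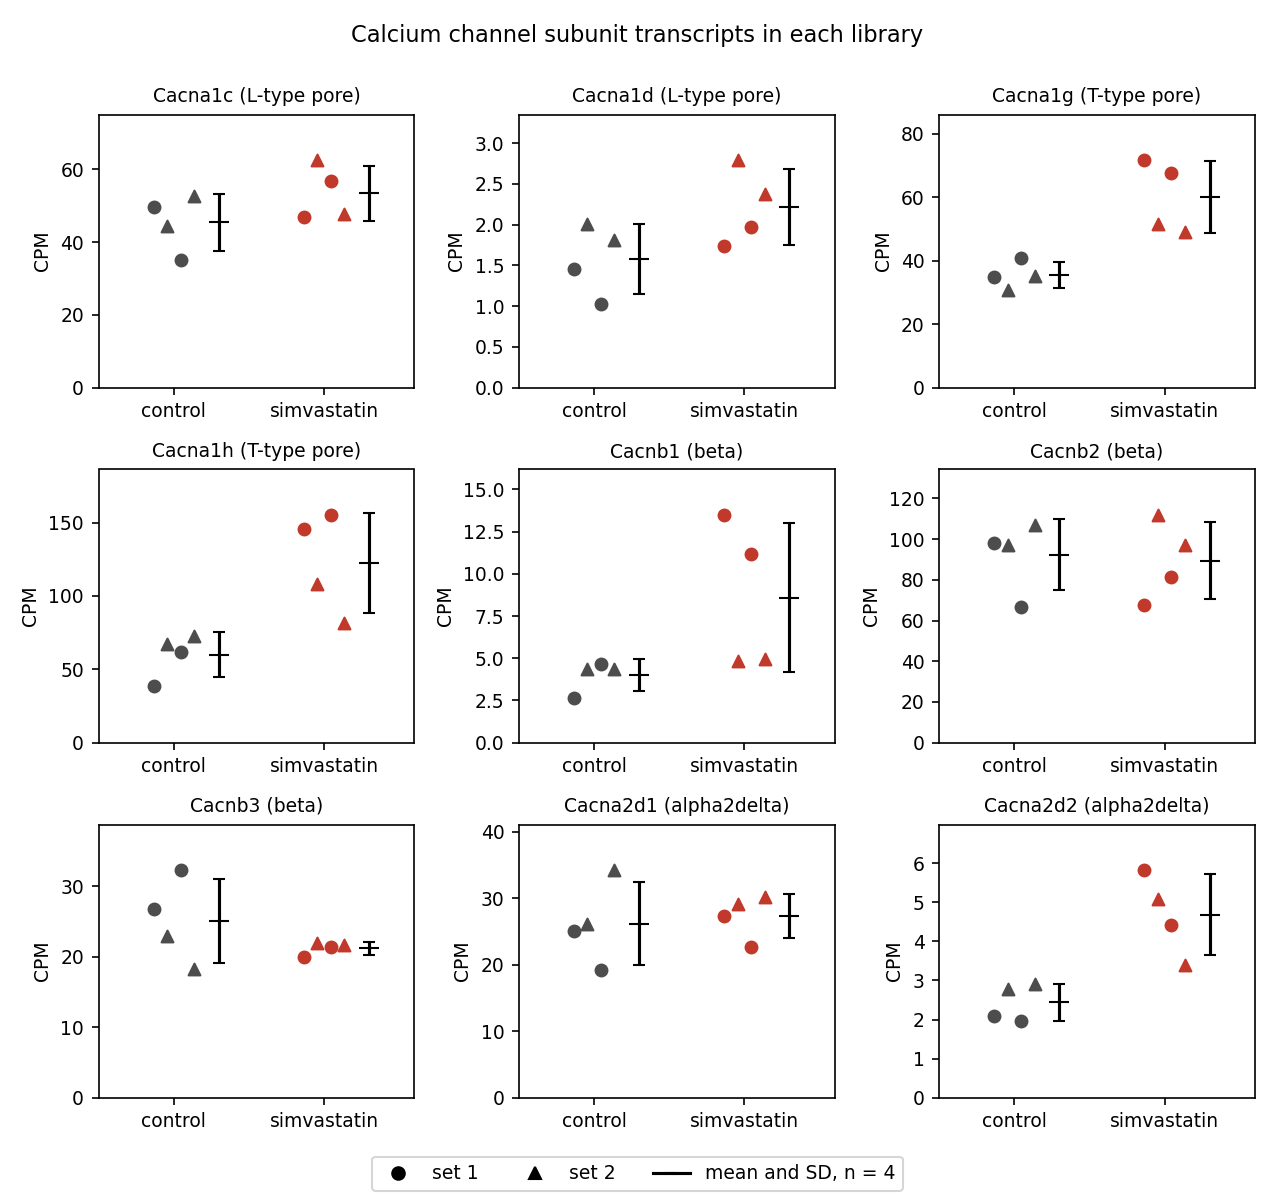
TMM-scaled CPM (y axes, linear from 0) of the 9 subunits in the control and simvastatin libraries, with circles for set 1, triangles for set 2, and bars for the mean and SD of 4 libraries. The groups are apart for Cacna1g, Cacna1h, Cacnb1 and Cacna2d2, and for Cacna1h and Cacnb1 the set 1 simvastatin libraries lie well above those of set 2.

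Cacna1g, a T-type pore of the embryonic heart and the conduction system, lies on the minus strand of chromosome 11 (94408391 to 94474198). Its levels were 34.9, 30.8, 40.9 and 35.1 CPM in control replicates 1 to 4 and 71.7, 51.6, 67.5 and 49.0 CPM in simvastatin replicates 1 to 4. Every simvastatin library lay above every control library. The mean went from 35.4 ± 4.15 to 59.96 ± 11.3 CPM (SD, n = 4), a ratio of 1.69, with log2 fold change 0.76 ± 0.15 (SE; edgeR adjusted p = 0.0054). Within the sets it was 0.86 (set 1) and 0.61 (set 2), and Cacna1g was the only subunit called in each set alone (edgeR adjusted p = 0.0294 and 0.0061).

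Cacna1h, the other T-type pore, lies on the minus strand of chromosome 17 (25374285 to 25433783). It measured 38.6, 67.6, 61.5 and 72.7 CPM in the control libraries and 145, 108, 155 and 81.3 CPM in the simvastatin libraries. The groups did not overlap, but simvastatin replicate 4 was close to control replicate 4. The mean rose from 60.1 ± 15.0 to 122 ± 34.2 CPM (SD, n = 4), a ratio of 2.04, with log2 fold change 1.03 ± 0.23 (SE; edgeR adjusted p = 0.0119). The ratio of mean CPM was 3.0 in set 1 and 1.35 in set 2. In set 2 alone the gene was not called (log2 fold change 0.43, edgeR adjusted p = 0.0585). The difference between the sets had an unadjusted p of 0.00368 in edgeR and did not pass the adjustment (edgeR adjusted p = 0.144).

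Cacna1c, the main L-type pore of heart muscle, lies on the minus strand of chromosome 6 (118587240 to 119196418). Control libraries held 49.5, 44.3, 35.03 and 52.7 CPM and simvastatin libraries 46.8, 62.5, 56.7 and 47.6 CPM. The ranges overlapped, with 2 simvastatin libraries below the highest control library. The mean was 45.4 ± 7.74 CPM in control and 53.4 ± 7.54 CPM with simvastatin (SD, n = 4), and the log2 fold change of 0.23 did not pass the test (SE 0.15, edgeR adjusted p = 0.334). Within sets it was 0.28 and 0.18.

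Cacna1d, the L-type pore known from sinoatrial cells and neurons, lies on the minus strand of chromosome 14 (30039949 to 30491156) and was the scarcest of the 9 per length. It rests on 36 to 97 counts per library. The control libraries held 1.45, 2.01, 1.03 and 1.81 CPM and the simvastatin libraries 1.73, 2.79, 1.97 and 2.37 CPM. Only part of the ranges overlapped, and within each set both simvastatin libraries lay above both control libraries. The log2 fold change of 0.49 did not pass the test (SE 0.27, edgeR adjusted p = 0.255), at 0.56 in set 1 and 0.43 in set 2.

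Among the β subunits, which traffic the L-type pore to the membrane, none was called. Cacnb1, best known as the β subunit of skeletal muscle, lies on the minus strand of chromosome 11 (98001508 to 98023034) and had the largest log2 fold change of the 9 genes. It measured 2.62, 4.35, 4.66 and 4.37 CPM in control and 13.5, 4.81, 11.2 and 4.94 CPM with simvastatin. Both set 1 simvastatin libraries were high, while both set 2 simvastatin libraries lay just above the controls. The pooled log2 fold change was 1.10 (SE 0.35, edgeR adjusted p = 0.0568). It passed in set 1 alone, at 1.74 (edgeR adjusted p = 0.0282), but not in set 2 alone, at 0.16 (edgeR adjusted p = 0.643), and the test of the difference between sets had an unadjusted p of 0.00248 and an edgeR adjusted p of 0.122. DESeq2 called Cacnb1 (adjusted p = 0.0113), limma-voom did not (adjusted p = 0.108), and edgeR called it with no filter beyond 1 count (adjusted p = 0.0054), without simvastatin replicate 2 (adjusted p = 0.0282) or without simvastatin replicate 4 (adjusted p = 0.0314).

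Cacnb2, the principal β subunit of the heart, lies on the plus strand of chromosome 2 (14603088 to 14987908) and had the highest CPM of the 3 β genes. The control libraries held 98.3, 97.3, 66.9 and 107 CPM and the simvastatin libraries 67.8, 112, 81.3 and 97.0 CPM. The groups covered much the same range, and the log2 fold change was -0.05 (SE 0.18, edgeR adjusted p = 0.904).

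Cacnb3, a β subunit also common in smooth muscle and neurons, lies on the plus strand of chromosome 15 (98632220 to 98644530). It measured 26.7, 23.0, 32.3 and 18.2 CPM in control and 19.9, 21.9, 21.4 and 21.6 CPM with simvastatin. The simvastatin libraries all lay inside the control range, and the log2 fold change of -0.24 did not pass the test (SE 0.16, edgeR adjusted p = 0.372). It was -0.53 in set 1 and 0.08 in set 2, a difference between sets with an unadjusted p of 0.0354 in edgeR that did not pass the adjustment (edgeR adjusted p = 0.372).

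Cacna2d2, an α2δ subunit also prominent in brain, lies on the plus strand of chromosome 9 (107399612 to 107529343). It measured 2.08, 2.78, 1.97 and 2.91 CPM in control and 5.83, 5.10, 4.42 and 3.39 CPM with simvastatin, resting on 69 to 185 counts per library. All simvastatin libraries were above all controls, the nearest being simvastatin replicate 4 and control replicate 4. The mean rose from 2.44 ± 0.479 to 4.68 ± 1.04 CPM (SD, n = 4), a ratio of 1.92, with log2 fold change 0.94 ± 0.23 (SE; edgeR adjusted p = 0.0160). It was 1.32 in set 1 (edgeR adjusted p = 0.0469) and 0.58 in set 2, where it was not called (edgeR adjusted p = 0.175).

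Cacna2d1, the widely expressed α2δ subunit of heart and skeletal muscle, lies on the plus strand of chromosome 5 (15934691 to 16374511). It measured 25.1, 26.1, 19.1 and 34.2 CPM in control and 27.3, 29.1, 22.7 and 30.2 CPM with simvastatin. The simvastatin libraries lay inside the control range, and the log2 fold change was 0.06 (SE 0.17, edgeR adjusted p = 0.863).

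**Figure D2:**
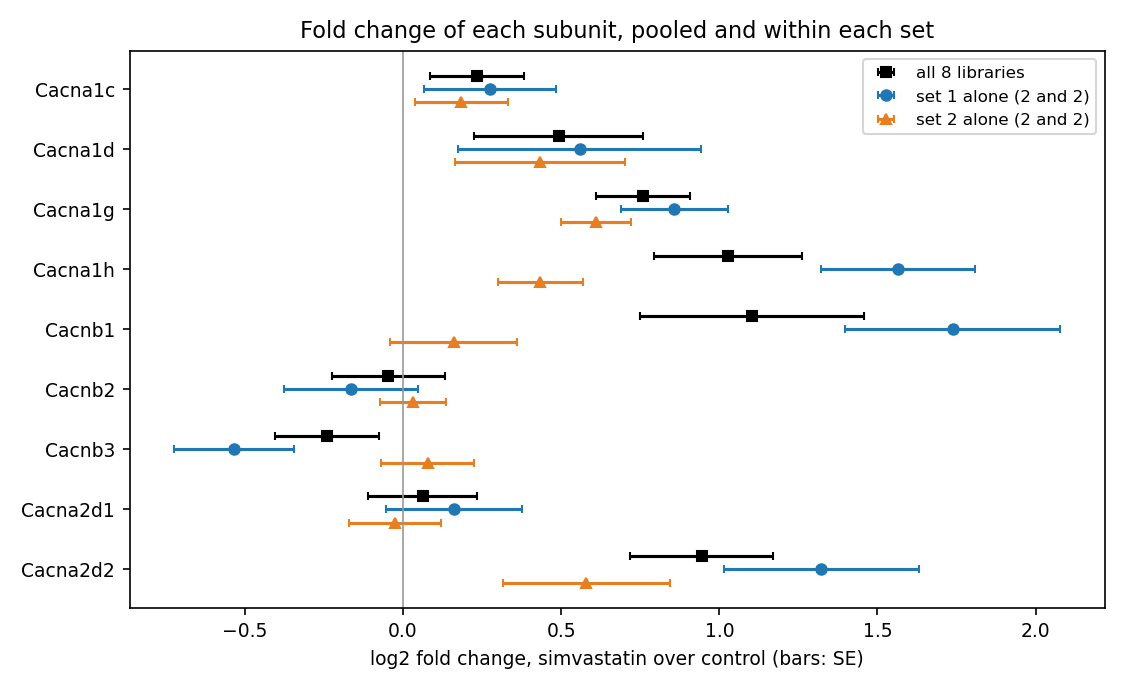
Log2 fold change of simvastatin over control (x axis) for each subunit from all 8 libraries (black squares), set 1 alone (blue circles) and set 2 alone (orange triangles), with bars of 1 SE. Cacna1g lies at 0.86 and 0.61 in the sets, while Cacna1h and Cacnb1 lie at 1.56 and 1.74 in set 1 and 0.43 and 0.16 in set 2.

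Fitted alone, set 1 called 4 of the 9 subunits higher (Cacna1g, Cacna1h, Cacnb1 and Cacna2d2), with 3.91% of all its tested genes called higher. Set 2 called 1, Cacna1g, with 6.79% of its genes called higher. In the test of the difference between sets, 3 subunits had an unadjusted p under 0.05 (Cacna1h, Cacnb1 and Cacnb3) and none passed the adjustment, as 0.0558% of all genes did (9 genes). Whatever a set stands for, its part in the size of these changes was not tested further.

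Counts were next divided by exonic length, which allows levels of different genes to be set side by side (TPM, counts per exonic base scaled to the same sum in every library). In control libraries Cacnb3 came first at 20.8 ± 4.44 TPM, then Cacnb2 at 18.2 ± 3.95, Cacna1h at 16.0 ± 4.01, Cacna1g at 9.07 ± 0.923, Cacna1c at 5.59 ± 1.12 and Cacna2d1 at 5.50 ± 1.45 TPM (SD, n = 4). Cacnb1 at 2.29 ± 0.500, Cacna2d2 at 0.799 ± 0.169 and Cacna1d at 0.445 ± 0.127 TPM followed (SD, n = 4). Among neighbours in this order, the library ranges overlapped for Cacnb3 and Cacnb2, for Cacnb2 and Cacna1h, and for Cacna1c and Cacna2d1.

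With simvastatin Cacna1h came first at 33.6 ± 9.34 TPM, followed by Cacnb3 at 18.2 ± 0.931, Cacnb2 at 18.2 ± 4.04 and Cacna1g at 15.8 ± 2.92 TPM (SD, n = 4). Cacna1c was at 6.76 ± 1.04, Cacna2d1 at 5.89 ± 0.712, Cacnb1 at 5.08 ± 2.57, Cacna2d2 at 1.58 ± 0.349 and Cacna1d at 0.643 ± 0.141 TPM (SD, n = 4). Here the ranges of Cacnb3 and Cacnb2, Cacnb2 and Cacna1g, Cacna1c and Cacna2d1, and Cacna2d1 and Cacnb1 overlapped, while those of Cacna1h and Cacnb3 did not. Exonic length covers every annotated isoform, so a gene with long alternative exons, such as Cacna1c with 21191 exonic bases, is set lower than its main transcript would be.

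**Figure D3:**
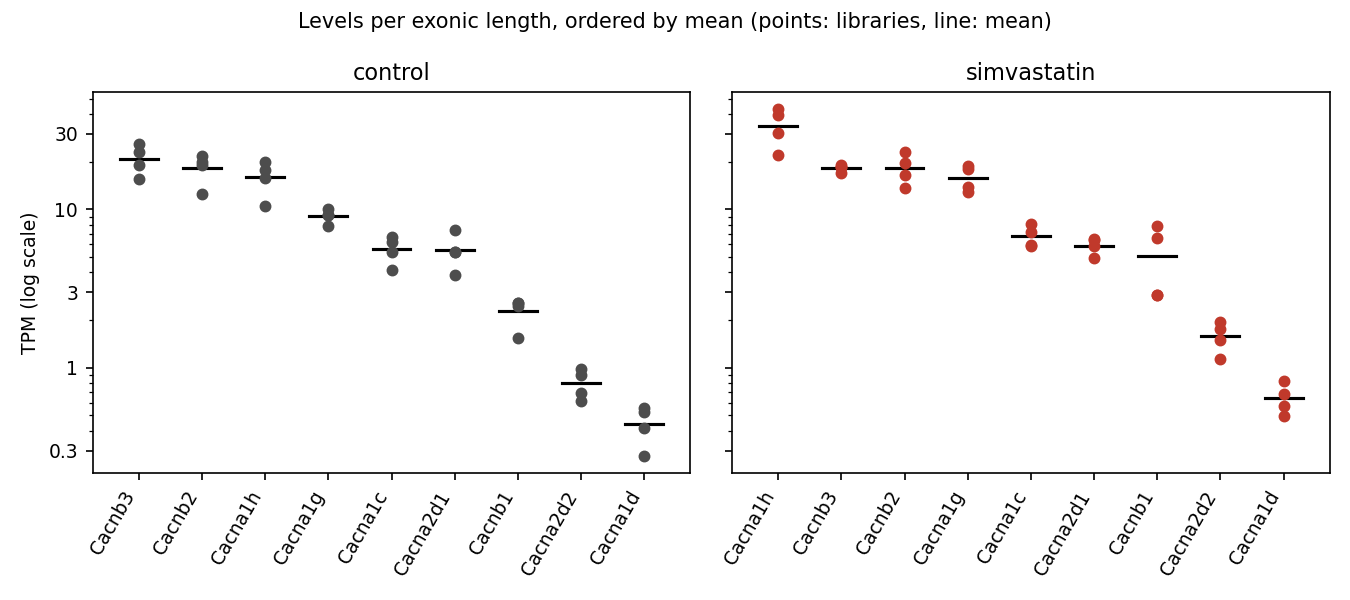
TPM on a log axis for the 9 subunits in control (left) and simvastatin (right) libraries, ordered by mean, with 1 point per library and a line at the mean. Cacna1h moves from the third place at 16.0 TPM to the first at 33.6 TPM, while Cacna1d stays last.

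The make-up of each subunit class was compared as a share of its summed TPM, as a description. T-type pores together made up 74.8%, 81.2%, 85.4% and 80.2% of the 4 pore transcripts in control libraries and 90.2%, 83.2%, 88.6% and 84.0% in simvastatin libraries. The means were 80.4 ± 4.37% and 86.5 ± 3.40% (SD, n = 4), and the groups overlapped, control replicate 3 lying above 2 of the simvastatin libraries. Cacna1h alone went from 50.8 ± 7.43% to 58.5 ± 4.21%, Cacna1c from 18.2 ± 4.14% to 12.3 ± 2.95%, and Cacna1g from 29.6 ± 5.22% to 28.1 ± 2.28% (SD, n = 4).

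Cacnb1 supplied 3.49% to 6.48% of β transcripts in control libraries. Its share was 20.6% and 15.9% in the set 1 simvastatin libraries and 6.42% and 7.10% in those of set 2. For α2δ, the Cacna2d2 share was 11.5% to 14.3% in control and 14.9% to 25.0% with simvastatin, with means of 12.8 ± 1.44% and 21.2 ± 4.42% (SD, n = 4) and no overlap between the groups. Cacna2d1 remained the majority α2δ transcript in all 8 libraries.

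**Figure D4:**
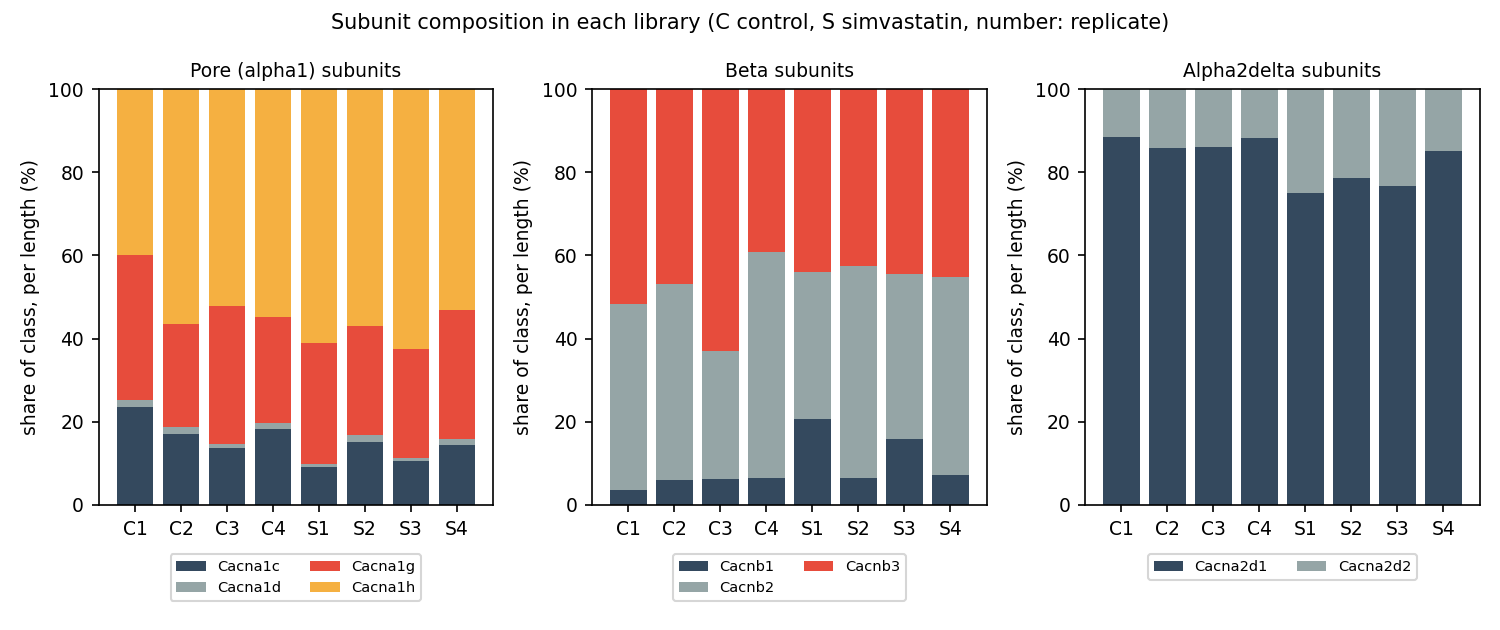
Share of each subunit in the summed TPM of its class (y axis, percent) in control (C) and simvastatin (S) replicates 1 to 4, for pore, β and α2δ subunits. Cacna1h and Cacna1g fill most of the pore class in every library, and the Cacna2d2 share lies between 14.9% and 25.0% with simvastatin against 11.5% to 14.3% in control.

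Some exons of these genes overlap those of a gene on the other strand, and whether counting used strand is not stated in these sources, so reads of the 2 genes cannot be told apart there. Cacna1d shares 518 exonic bases with Chdh, Cacna1h 158 with Tpsg1, Cacnb1 80 with Gm11629, Cacna2d2 82 with Gm17141, and Cacnb2 618, 111 and 239 with Gm10849, Gm10848 and Gm13269. All of these neighbours stayed at or under 0.150 CPM as a group mean. Cacna1c, Cacna1g, Cacnb3 and Cacna2d1 had no such overlap.

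The other 17 subunit genes of the family were mostly at very low levels in these cultures. Only 4 passed the filter, and the highest library of the other 13 reached 0.634 CPM. Of the 4, none rose and 1 fell, against 7.79% and 9.61% of all tested genes, and their median log2 fold change was -0.34. Cacna1s, the L-type pore and voltage sensor of skeletal muscle, measured 2.14, 0.858, 0.429 and 1.29 CPM in control and 0.0945, 0.0576, 0.226 and 0.230 CPM with simvastatin. It fell by 2.94 on the log2 scale (SE 0.59, edgeR adjusted p = 0.0061), from a low level, and was not called in set 1 alone (edgeR adjusted p = 0.106). The 3 that did not pass, named after their values were seen, were the neuronal P/Q-type pore Cacna1a (3.21 to 4.04 CPM), Cacnb4 (1.11 to 0.635 CPM) and Cacng6 (27.5 to 29.9 CPM).

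Proteins that regulate the channels were followed in a list of 38 genes, of which 35 were tested. Of these 3 rose (8.57%) and 4 fell (11.4%), near the 7.79% and 9.61% of all tested genes. The median over the 35 was 0.02 on the log2 scale. Akap5, an anchoring protein that holds protein kinase A and calcineurin at the L-type channel, fell from 14.8 ± 2.27 to 2.98 ± 1.83 CPM (SD, n = 4; log2 fold change -2.31, edgeR adjusted p = 0.0026). Cav1, the scaffold of caveolae, fell from 141 ± 31.3 to 69.3 ± 11.03 CPM (SD, n = 4; log2 fold change -1.03, edgeR adjusted p = 0.0019). In set 1 and set 2 alone the log2 fold changes were -3.41 and -1.62 for Akap5 and -1.40 and -0.65 for Cav1. These differences between sets had an unadjusted p of 0.00318 and 0.0141 in edgeR. Neither passed the adjustment (edgeR adjusted p = 0.136 and 0.249). Stac2, of the STAC adaptor family that modulates L-type channels, fell from 1.80 ± 0.294 to 0.505 ± 0.133 CPM (SD, n = 4; log2 fold change -1.83, edgeR adjusted p = 0.0015). Control and simvastatin libraries did not overlap for any of the 3, as for 23.1% of all genes tested. These genes were picked by smallest p, which favours such a gap, so it adds no support.

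Fkbp1b, which encodes the FK506-binding protein bound to the ryanodine receptor, rose from 9.44 ± 1.21 to 19.9 ± 3.52 CPM (SD, n = 4; log2 fold change 1.07, edgeR adjusted p = 0.0013), and also in each set, at 1.41 and 0.70. The remaining called regulators, named after their values were seen, were Rem1, a small GTPase that restrains calcium channels (5.99 to 1.79 CPM), Ahnak, a scaffold that binds β subunits (158 to 259 CPM), and the kinase subunit Camk2a (37.8 to 55.0 CPM). Rem1 was not called in set 2 alone (edgeR adjusted p = 0.0573), and Stac2 and Ahnak were not called in set 1 alone (edgeR adjusted p = 0.0898 and 0.101). Camk2a was called in neither set alone, and its call was lost when control replicate 1, control replicate 3, simvastatin replicate 2 or simvastatin replicate 3 was left out (edgeR adjusted p from 0.0596 to 0.0793).

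Partners of the channels in calcium release and removal formed a list of 23 genes, all tested. Of these 2 rose (8.70%) and 4 fell (17.4%), against 7.79% and 9.61% of all tested genes. The median was 0.14 on the log2 scale. Itpr1, an inositol trisphosphate receptor of the endoplasmic reticulum, fell from 31.5 ± 3.34 to 16.6 ± 2.43 CPM (SD, n = 4; log2 fold change -0.93, edgeR adjusted p = 0.0010). Casq1, a calsequestrin that buffers calcium in the sarcoplasmic reticulum, fell from 1501 ± 191 to 928 ± 134 CPM (SD, n = 4; log2 fold change -0.69, edgeR adjusted p = 0.0035). Atp2a2, the SERCA pump that refills that store, fell from 1519 ± 198 to 1085 ± 113 CPM (SD, n = 4; log2 fold change -0.49, edgeR adjusted p = 0.0158). The call was lost in set 2 alone (edgeR adjusted p = 0.101) and without simvastatin replicate 3 (edgeR adjusted p = 0.0533). Casq2, the other calsequestrin of the list, named after its values were seen, was not called with the libraries pooled. Its log2 fold change was -0.14 in set 1 alone and -0.35 in set 2 alone, where it was called.

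Atp2b4, a calcium pump of the plasma membrane, rose from 4.54 ± 1.16 to 10.1 ± 2.25 CPM (SD, n = 4; log2 fold change 1.15, edgeR adjusted p = 0.0050), and was not called in set 1 alone (edgeR adjusted p = 0.0778). Itpr2 was also called higher (11.6 to 18.7 CPM) and Ryr3, a minor ryanodine receptor, lower (3.80 to 2.25 CPM), both named after their values were seen. The call of Itpr2 was lost when control replicate 2, control replicate 3, simvastatin replicate 1 or simvastatin replicate 3 was left out (edgeR adjusted p from 0.0556 to 0.0772), and in set 2 alone, where its log2 fold change was 0.31 against 1.04 in set 1 (edgeR adjusted p = 0.274 and 0.0312). Ryr3 was called in neither set alone (edgeR adjusted p = 0.111 and 0.236), nor with no filter beyond 1 count (edgeR adjusted p = 0.0571). Its call was also lost without control replicate 1 or 3 or any 1 simvastatin library (edgeR adjusted p from 0.0529 to 0.0933). Ryr2, the cardiac calcium release channel, measured 112 CPM in control and 117 CPM with simvastatin (edgeR adjusted p = 0.821).

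Genes of calcium signalling through calcineurin and calcium-dependent kinases, called calcium-responsive below, were followed in a list of 18 genes, all tested. Of these 2 rose (11.1%) and 1 fell (5.56%), against 7.79% and 9.61% of all tested genes. The median was 0.15 on the log2 scale. Rcan1, a calcineurin inhibitor that calcineurin signalling itself induces, fell from 219.9 ± 9.96 to 102 ± 11.6 CPM (SD, n = 4; log2 fold change -1.10, edgeR adjusted p = 6.22e-05). Its 4 simvastatin libraries ran from 90.4 to 117 CPM and its control libraries from 209 to 233 CPM. Myoz1, a Z-disc protein that binds calcineurin, rose from 9.16 ± 1.23 to 14.6 ± 0.887 CPM (SD, n = 4; log2 fold change 0.67, edgeR adjusted p = 0.0074), and was not called in set 1 alone (edgeR adjusted p = 0.154). Nfatc1, a transcription factor that calcineurin activates and also a marker of endocardium, rose from 16.4 to 23.4 CPM (edgeR adjusted p = 0.0493) with overlapping groups. Its call was lost without any 1 of the libraries other than simvastatin replicate 1 (edgeR adjusted p from 0.0519 to 0.143). It was called in neither set alone (edgeR adjusted p = 0.163 and 0.0531), nor by limma-voom (adjusted p = 0.0506) or with no filter beyond 1 count (edgeR adjusted p = 0.0524).

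**Figure D5:**
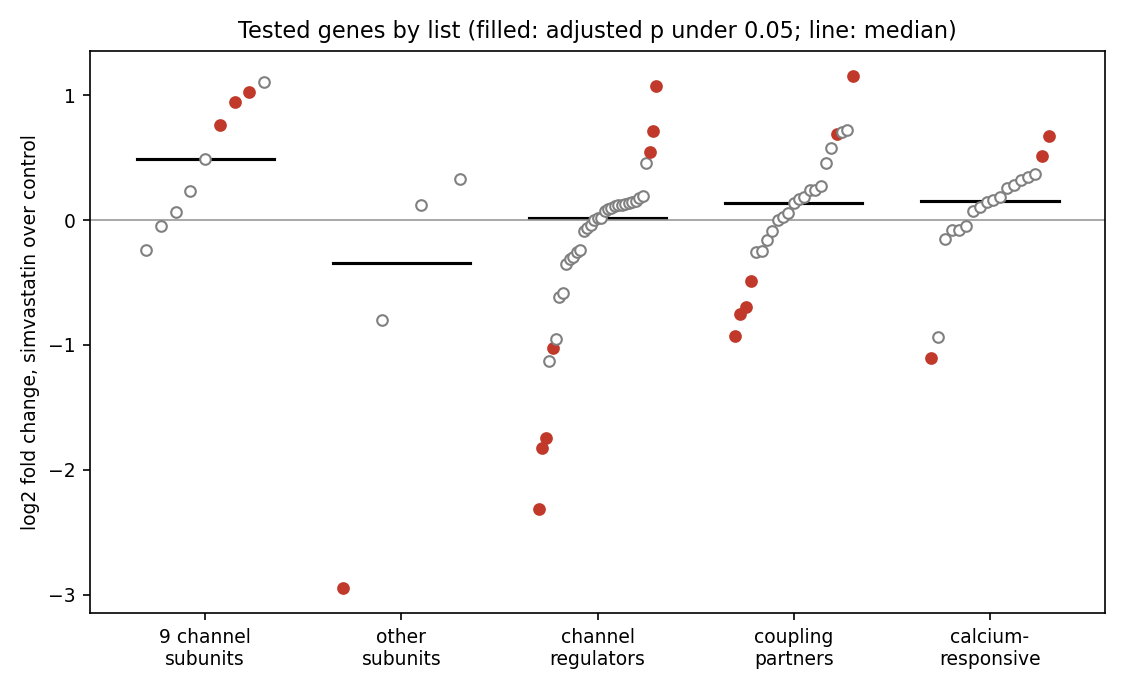
Log2 fold change of simvastatin over control (y axis) for each tested gene of the 9 subunits and the 4 lists, ordered within each list, with filled points for an edgeR adjusted p under 0.05 and a line at the median. The subunit median lies at 0.49 with 3 filled points, all above 0, and the regulators hold 3 filled points above 0 and 4 below.

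As a description of genes with a like pattern, log2 CPM of 9910 genes was correlated over the 8 libraries, which share their grouping and sets. For Cacna1g the highest Pearson r was with Sdccag8 (0.99) and Rala (0.99). For Cacna1h it was with Rab3il1 (0.99), Pld2 (0.98) and Mfsd12 (0.98), and for Cacna2d2 with Slc51a (0.99), Atat1 (0.98) and Klhl30 (0.98). Cacna1c was most like Sptan1 (0.97), Afap1 (0.96) and Zbtb21 (0.95), none of which was called. Among the genes named for the subunits that rose, Atat1 was not called either (edgeR adjusted p = 0.114).

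The cultures hold more than 1 cell type, and in RNA from whole cultures more cells of a type and more transcript per cell cannot be told apart. Counts of called markers stand beside the 7.79% of all tested genes that rose and the 9.61% that fell. Cardiomyocyte markers were high throughout, and 1 of 12 rose. Their sums were 51164 to 63634 CPM in control and 58147.5 to 64938 CPM with simvastatin. Smooth muscle and pericyte markers moved with the treatment: 6 of 9 tested genes fell, none rose, and their sum went from 2927 to 3922 CPM in control to 664 to 1010 CPM with simvastatin. Ventricular markers summed to 8163 to 10438 CPM in control and 11223 to 12442 CPM with simvastatin, with 3 of 8 higher and 2 lower.

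Of 10 markers of pacemaker cells, in which T-type channels are prominent, 1 rose and 1 fell, near the 7.79% and 9.61% of all tested genes. Their sums of 327 to 445 CPM in control and 237 to 347 CPM with simvastatin overlapped. Markers of neural cells, in which Cacna2d2 is also expressed, had 3 of 6 tested genes higher and sums of 34.9 to 52.1 CPM in control and 80.0 to 99.0 CPM with simvastatin, mostly Tubb3. Foxd3 was at 0 in every library, and Sox10 and Phox2a did not exceed 0.0545 CPM as a group mean. In skeletal muscle markers 2 of 5 tested genes fell, 1 of them Cacna1s itself, while Myod1, Myf5 and Tnnc2 were at or near 0. The median log2 fold change of the tested genes was 0.06. The list summed to 641 to 989 CPM in control and 830 to 1292 CPM with simvastatin, so the sum did not fall. Of 8 tested fibroblast markers 3 fell, with overlapping sums of 1145 to 2541 CPM in control and 1236 to 1440 CPM with simvastatin. Of 7 tested macrophage markers 4 fell, with sums of 64.9 to 75.6 CPM in control and 45.5 to 57.2 CPM with simvastatin. Of 6 tested erythroid markers 3 rose, at low sums of 8.37 to 13.8 CPM in control and 16.9 to 39.7 CPM with simvastatin. The part of these cell types in the changes of the channel subunits was not tested.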

How the data were processed

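Cultured mouse cardiomyocytes were profiled by RNA-seq in 8 libraries, grouped by the treatment label. The authors deposited 1 table of gene counts per library, not normalised. The submitters' processing notes name the trimmer Trimmomatic 0.36 and the aligner STAR 2.5.2b. For counting they name featureCounts, in Subread 1.5.2, and as builds GRCm38 and mm10. Symbols came from GENCODE M21, which matched 99.3% of identifiers. Of 32927 genes with any count, filterByExpr kept 16126. The counts were tested with edgeR 4.0.16 (R 4.3.3) by the quasi-likelihood test on treatment, with TMM scaling. The common biological coefficient of variation was 0.222. TPM used the exonic lengths in the files. Replicate libraries all differed beyond sampling noise. DESeq2 1.42.0, limma-voom (limma 3.58.1), other scalings and filters, a replicate block, the set as a term, each set alone and each library left out were the alternatives. The edgeR script was tested on simulated data.

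The subunits and the gene lists were chosen with earlier results of these data known. The text names all 9 subunits, other family members that were called, the 4 called genes of smallest p in each further list, and, for Cacna1c and each called subunit, the 3 genes with the highest r among those of at least 5 CPM. Some genes these rules name are not reported here.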

Additional observations from a re-analysis of the deposited data

Results flagged for a closer look

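In 33 genes the highest and the lowest library of each group were compared with the other 3 libraries of that group, which made 66 groups. Chance gives such a result in about 5% of groups, and 3 were found. Cacnb1 was lowest in control replicate 1, at 2.62 CPM, with the other controls between 4.35 and 4.66 CPM. Itpr1 was highest in simvastatin replicate 2, at 20.2 CPM, with the others between 15.0 and 15.8 CPM. Atp2b4 was highest in simvastatin replicate 1, at 13.5 CPM, with the others between 8.61 and 9.18 CPM.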

How the results depend on the processing

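Over 18 alternatives Cacna1g was called in all, Cacna1h in 17 (not in set 2 alone) and Cacna2d2 in 16 (not in set 2 alone, nor with the replicate block, adjusted p = 0.0502). The block also ended the calls of Atp2a2 (adjusted p = 0.0604), Itpr2 (0.0667), Ryr3 (0.101) and Nfatc1 (0.0554). Subunits that rose numbered 1 in set 2 alone, 2 with the replicate block and 3 to 4 with 1 library left out. All genes called higher numbered 1103 in set 2 alone and 817 to 1115 with 1 library left out, against 1256 with all 8 libraries. Replicate numbers did not pair the libraries (correlations of deviations from -0.16 to 0.13), and the block took all genes called higher from 1256 to 944 and lower from 1549 to 1187. Cacnb2 reversed to 0.031 in set 2 alone and ran from -0.17 to 0.067 with 1 library left out. Cacna2d1 reversed to -0.026 in set 2 alone and ran from -0.054 to 0.21, and Cacnb3 reversed to 0.078 in set 2 alone. Ryr2 reversed to -0.098 in set 1 alone and ran from -0.040 to 0.16 with 1 library left out, and Cacng6 from -0.082 to 0.37.

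All genes called higher and lower numbered 1616 and 1820 with DESeq2 and 1272 and 1590 with no filter. With the 1 CPM filter they numbered 1212 and 1441, with limma-voom 1264 and 1535. With the set as a term they numbered 1577 and 1785, with the block 944 and 1187. In set 1 alone they numbered 648 and 979, in set 2 alone 1103 and 1872. With 1 library left out they ran from 817 to 1115 and from 1185 to 1417. Other subunits that rose numbered 1 with DESeq2 and with no filter, and 0 to 1 with 1 library left out. Those that fell numbered 2 with DESeq2 and with no filter, 0 with the 1 CPM filter and 0 in set 1 alone. Regulators that rose numbered 1 in set 1 alone, and those that fell 7 with the set as a term and 7 in set 2 alone. Coupling partners that rose numbered 1 with the block and 1 to 3 with 1 library left out, and those that fell 2 and 2 to 4. Calcium-responsive genes that rose numbered 1 with limma-voom, no filter, the block and set 2 alone, 4 with the set as a term, 0 in set 1 alone and 1 to 2 with 1 library left out, and those that fell 1 to 2. From raw counts without length the T-type share was 66.8% in control and 76.0% with simvastatin. The cause of these changes was not tested. Depth limits Cacna1d and Cacna2d2 most, and with 2 libraries per group in a set a missed call does not show that a gene was unchanged.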
